A study of Mus musculus with 6 samples.

Results

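The antioxidant programme governed by Nrf2 was examined in myoepithelial cells grown from exorbital lacrimal glands of mice. It was read through 40 listed genes, covering the Nrf2 switch, glutathione, thioredoxin, superoxide and peroxide removal, and metallothioneins. A gene was read from the probe set that carries its symbol alone, and where a gene had several such probe sets the brightest over the 6 arrays was used. This gave 36 of the 40 genes, among 22180 genes tested. G6pdx, Prdx1, Prdx5 and Prdx6 had no probe set with their symbol alone and were not analysed here.

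Total RNA came from 6 samples on Affymetrix Mouse Gene 2.0 ST arrays, 3 from TSP1 null mice and 3 from wild-type C57BL/6J mice, all female. Thbs1 encodes TSP1 (thrombospondin-1), which cells secrete into the matrix, and mice lacking it (TSP1-/-) serve in the series as the dry eye disease model. Cells of both genotypes grew for about 2 to 3 weeks with fetal bovine serum and received no special treatment. The arrays are labelled as biological replicates. The sources used here do not give the age of the mice, the background strain of the null mice, or how many animals went into a culture. Values are log2 signals, so a difference of 1 is a doubling, and differences are TSP1 null minus wild type with limma's standard error (SE) and p-values adjusted over all 22180 genes.

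Nrf2, encoded by Nfe2l2, is a transcription factor that Keap1 holds in the cytoplasm and hands to the proteasome. Oxidants and electrophiles modify cysteines of Keap1, and Nrf2 then enters the nucleus, pairs with small Maf proteins at antioxidant response elements and drives genes of glutathione synthesis, thioredoxin recycling, quinone reduction and heme breakdown. Metallothioneins, small cysteine-rich metal-binding proteins, are driven mainly by the zinc sensor Mtf1 at metal response elements. Oxidative stress of the ocular surface and lacrimal gland is widely studied in dry eye disease.

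Of the 10 listed myoepithelial markers 9 were measured, and they spread widely. Among the contractile genes Acta2 lay between 13.85 and 14.01, Tagln between 12.16 and 12.58, Cnn1 between 11.64 and 12.22, Myh11 between 8.35 and 9.58 and Mylk between 6.11 and 7.49. The oxytocin receptor gene Oxtr lay between 5.48 and 6.02, Krt17 between 4.71 and 6.10, and the basal keratin gene Krt14 between 5.78 and 6.35 on the null and 4.93 and 5.52 on the wild-type arrays. Trp63, the p63 gene, lay between 4.47 and 4.93, below the array medians of 5.25 to 5.32. The mean of 14 macrophage markers was 8.83, 9.62 and 7.31 on the null arrays and 9.55, 10.07 and 10.25 on the wild-type arrays, all 14 lower in the null group on average, with Cd163 at 4.02 to 4.42. The mean of 8 fibroblast markers was 11.17, 11.79 and 11.36 on the null arrays and 11.88, 11.10 and 11.18 on the wild-type arrays, with 4 of the 8 higher in the null group on average. The collagen genes Col1a1 (0.54, SE 0.15), Col1a2 (0.51, SE 0.11) and Col3a1 (1.03, SE 0.27) were higher on every null array than on any wild-type array, with adjusted p of 0.325, 0.29 and 0.324, whereas Dcn and Lum had lower means there, with overlap. The part of these markers in the antioxidant differences was not tested. In such bulk samples fewer cells of a type and less RNA per cell cannot be told apart. The targeted gene, Thbs1, was lower in the null group by 0.68 on the log2 scale (SE 0.13, adjusted p = 0.25) and stayed bright there, and the sources used here do not say whether its probes lie in the disrupted part.

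No antioxidant gene was called between the groups, and those with the smallest p were Txnip, Cat and Keap1. Some intervals of the others were wide, such as -1.14 to 1.02 for Nqo1 and -1.08 to 0.94 for Sod3. Txnip, the inhibitor of thioredoxin, had 1.93-fold higher signal in the null group, Cat, encoding catalase, had 1.68-fold higher signal in the wild type, and Keap1 had 1.40-fold higher signal in the null group. With limma 0 of the 36 passed an adjusted p of 0.05, as did 0 of all genes (0%). At an unadjusted p under 0.05 the 3 named genes stood alone, which is 8.33% of the measured members against 10.6% of all genes. Of these 2 were higher in the null group (6.28% of all genes were) and 1 was lower (4.27% of all genes were). The groups did not overlap for 5 members (13.9%), namely Nfe2l2, Keap1, Txnip, Sod2 and Cat, against 15.8% of all genes. Of the 5, 2 were higher in the null group (10.1% of all genes were) and 3 were lower (5.75% of all genes were). A difference of at least 1.5-fold was seen for 2 members (Txnip and Cat, 5.56%), against 4.19% of all genes. These shares are near the background. Of the 36 members 23 had a lower mean in the null group (63.9%, against 44.9% of all genes), and their median difference was -0.057, against 0.022 for all genes.

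**Figure D1:**
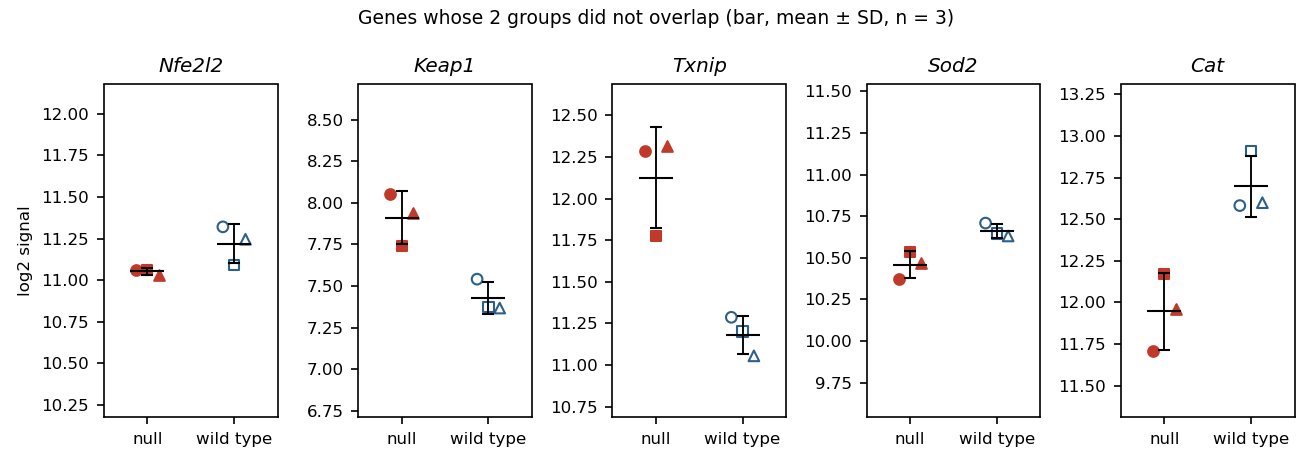
Log2 signals of the 5 antioxidant genes whose groups did not overlap, on a common span of 2 log2 units; filled red symbols are TSP1 null arrays, open blue symbols wild-type arrays, circles, squares and triangles are replicates 1, 2 and 3, and bars are mean ± SD (n = 3). Txnip and Cat show the widest gaps between the groups, and the Nfe2l2 groups come within the width of a symbol of each other.

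Nfe2l2 itself had signals of 11.06, 11.06 and 11.03 on the null arrays and 11.32, 11.09 and 11.25 on the wild-type arrays. Every null array lay below every wild-type array, but wild type 2 nearly touched the null group. The difference was -0.17 (SE 0.11, 95% interval -0.42 to 0.086, adjusted p = 0.634). Keap1, the adaptor that marks Nrf2 for destruction, had signals of 8.05, 7.74 and 7.94 on the null arrays against 7.54, 7.37 and 7.37 on the wild-type arrays. All null arrays were higher, by 0.48 on average (SE 0.12, interval 0.19 to 0.77, adjusted p = 0.321). A dimmer Keap1 probe set, between 5.51 and 5.97, pointed the same way with a difference of 0.27 (SE 0.13). The messenger RNA of Nrf2 says little about its activity, which is set mainly through the stability of the protein and was not measured here.

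Nqo1 and Hmox1 are classic Nrf2 effectors, a quinone reductase and the heme oxygenase that turns heme into biliverdin, iron and carbon monoxide. Nqo1 had signals of 9.41, 10.12 and 9.64 on the null arrays and 8.64, 10.62 and 10.10 on the wild-type arrays. Wild type 1 was the lowest and wild type 2 the highest of all 6, so the null arrays lay between them. The difference was -0.062 (SE 0.46), with a 95% interval from -1.14 to 1.02, which includes a doubling either way. Its within-group SD of 0.77 was at the 98.6th percentile of all genes. Hmox1 repeated the order, with 11.38, 11.85 and 11.45 against 11.26, 12.25 and 11.94. Its difference was -0.26 (SE 0.26, adjusted p = 0.773).

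The same array order ran through other members. Wild type 1 was lowest and wild type 2 highest for 7 of the 36 members (19.4%), against 4.98% of all genes, an order picked out after the values were seen and given without a test. The 7 were Nqo1, Hmox1, Slc7a11, Gclc, Gsto1, Txnrd1 and Sod1, and Nqo1, Hmox1, Slc7a11, Gclc and Txnrd1 are textbook Nrf2 targets. Other members of the same pathways did not share the order. Gclm, Gsr and Gstm1 were lowest on null 1, Srxn1 was lowest on wild type 1 but highest on null 1, and Gsta4 was highest on wild type 1. Wild type 1 was the lowest array for 12 members (33.3%, against 24.2% of all genes) and the highest for 8 (22.2%, against 17.4%), so it was an extreme array for 20 (55.6%, against 41.7%). Relative to the mean of wild types 2 and 3, wild type 1 was lower for Nqo1 by 3.28-fold, for Txnrd1 by 1.82-fold, for Slc7a11 by 1.80-fold, for Hmox1 by 1.78-fold and for Gclc by 1.63-fold. Against wild types 2 and 3, wild type 1 had higher fibroblast markers (mean deviation 0.47 against -0.32 and -0.23) and a lower macrophage mean (deviation 0.28 against 0.80 and 0.98), and their part in the pattern was not tested.

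**Figure D2:**
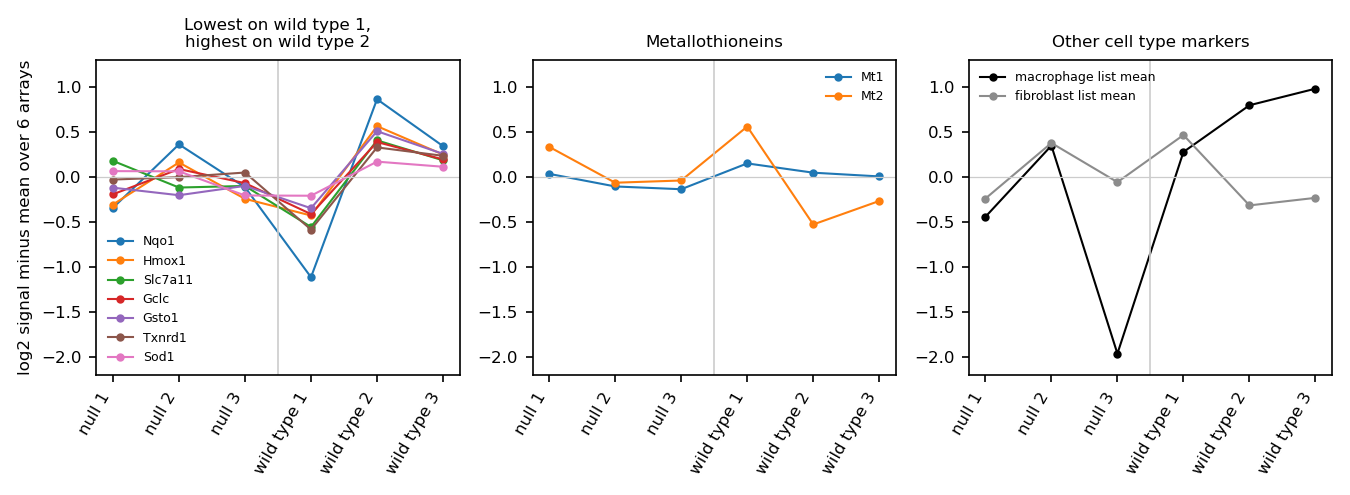
Log2 signal minus its mean over the 6 arrays (vertical axis) on each array (horizontal axis); left, the 7 antioxidant genes that were lowest on wild type 1 and highest on wild type 2; middle, Mt1 and Mt2; right, the means of the macrophage and fibroblast marker lists. Lines join the points of a gene or list and imply no order of replicates; Nqo1 has the deepest dip on wild type 1, where Mt1 and Mt2 are highest, and the macrophage mean is lowest on null 3.

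The 250 bases before the RefSeq start (build GRCm38.p6) were read for 34 of the 40 genes and searched on both strands for the antioxidant response element core TGACNNNGC and for the metal response element core, written as TGCACNC or TGCGCNC. The antioxidant core was found for 8 of the 34 genes (23.5%), G6pdx, Gclm, Mgst1, Mt2, Nfe2l2, Prdx1, Sod1 and Txnrd1, and in 10.2% of all 32851 promoter windows. The metal core was found for 11 of the 34 (32.4%) and in 21.4% of all windows. A gene with several starts counted if any window held the core, whereas the share over all windows counts each window. The windows of Hmox1, Gclc, Gsr, Sod3, Gsta4 and Prdx6 were not analysed here. Of the 7 genes with the shared array order 5 were thus searched. Within these 250 bases Txnrd1 (at 1 of its 3 listed starts) and Sod1 held the antioxidant core. Shown are Txnrd1 and Gclm, the regulatory subunit gene of glutathione synthesis, with the antioxidant core in capitals, and the neighbouring genes Mt1 and Mt2, which shared their brightest array, with the metal core in capitals. All 4 lie on the plus strand, at chr10:82858956-82859205 (Txnrd1, 1 of its 3 listed starts), chr3:122245307-122245556 (Gclm), chr8:94178839-94179088 (Mt1) and chr8:94172368-94172617 (Mt2).
Txnrd1: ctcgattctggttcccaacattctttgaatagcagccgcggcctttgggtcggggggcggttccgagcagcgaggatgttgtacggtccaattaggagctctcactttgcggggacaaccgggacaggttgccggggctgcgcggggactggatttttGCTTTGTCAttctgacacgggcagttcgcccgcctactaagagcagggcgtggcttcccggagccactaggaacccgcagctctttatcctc
Gclm: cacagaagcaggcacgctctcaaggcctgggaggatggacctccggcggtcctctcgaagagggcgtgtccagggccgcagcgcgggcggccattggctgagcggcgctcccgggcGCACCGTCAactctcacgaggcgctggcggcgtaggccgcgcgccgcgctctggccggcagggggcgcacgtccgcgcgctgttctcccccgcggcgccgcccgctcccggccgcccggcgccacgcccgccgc
Mt1: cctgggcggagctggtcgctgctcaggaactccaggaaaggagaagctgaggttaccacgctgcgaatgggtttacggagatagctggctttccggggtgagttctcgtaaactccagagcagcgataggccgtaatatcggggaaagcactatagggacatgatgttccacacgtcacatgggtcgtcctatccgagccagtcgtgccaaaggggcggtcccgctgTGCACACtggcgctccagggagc
Mt2: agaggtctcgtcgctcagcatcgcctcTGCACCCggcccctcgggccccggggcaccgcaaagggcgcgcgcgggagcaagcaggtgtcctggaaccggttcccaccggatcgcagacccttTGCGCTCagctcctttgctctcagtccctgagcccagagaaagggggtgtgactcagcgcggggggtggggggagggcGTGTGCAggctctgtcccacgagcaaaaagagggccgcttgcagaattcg
Both antioxidant cores above read on the minus strand, as GCTTTGTCA in Txnrd1 and GCACCGTCA in Gclm. Within these 250 bases Mt2 holds 3 metal cores and 1 antioxidant core, TGACTCAGC (in lower case above), whereas Mt1 holds 1 metal core and 0 antioxidant cores. Sequence farther upstream or past the listed start was not searched, so cores there are not counted. The windows therefore do not show how many cores a whole promoter holds. A match describes letters only.

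The listed glutathione genes had mostly lower mean signals in the null group, and none was called. Of the 13 measured, 12 had a lower mean in the null group (92.3%, against 44.9% of all genes), their median difference was -0.11, and 0 had groups that did not overlap. Of 23 other glutathione genes measured, 12 had a higher and 11 a lower mean, with a median of 0.021. With the macrophage mean as a covariate Slc7a11, Gclc, Gss, Gstm1, Gstm2 and Mgst3 turned positive and Mgst2 turned negative. The members share arrays and the order of wild types 1 and 2, so they are not 13 separate observations. The median hung on single arrays, being -0.31 without wild type 1, -0.25 without null 2 and -0.047 without null 1. Gclc, the catalytic subunit of the rate-limiting ligase, had 8.56, 8.84 and 8.69 on the null arrays and 8.34, 9.14 and 8.95 on the wild-type arrays. The null values lay inside the wild-type range, and the difference was -0.11 (SE 0.21). Gclm, its regulatory subunit, had 10.24, 10.76 and 10.70 against 10.73, 11.14 and 10.81. Null 1 was lowest and wild type 2 highest, and the difference was -0.33 (SE 0.18, interval -0.74 to 0.086, adjusted p = 0.562). Slc7a11, the cystine carrier that feeds the pathway, had 7.69, 7.40 and 7.41 against 6.96, 7.92 and 7.70, with a difference of -0.025 (SE 0.24). Its dim second probe set, between 3.23 and 3.59, gave 0.17 (SE 0.11). Gss, which adds glycine in the last step, had a difference of -0.10 (SE 0.26), and Gsr, which reduces spent glutathione, had -0.27 (SE 0.16).

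Glutathione transferases, which join glutathione to electrophiles, were lower on average for 7 of 8 listed members (87.5%, against 44.9% of all genes). The other measured genes with a Gst symbol mostly went the other way. Higher means were seen for Gstm4 (0.44), Gstp1 (0.28), Gsta3 (0.22), Gsto2 (0.20), Gstk1 (0.19), Gstm6 (0.075), Gstt3 (0.038) and Gstm3 (0.037). Lower means were seen for Gstm7 (-0.39) and Gstt2 (-0.28). Several of these signals were dim. Gstm3 (4.64 to 4.79), Gstm6 (4.97 to 5.21) and Gstt2 (4.21 to 5.13) lay below the array medians of 5.25 to 5.32. Gsta3 (4.94 to 5.43) lay around those medians. Gsta4, which handles the lipid peroxidation product hydroxynonenal, had the largest difference of the arm. Its signals were 7.68, 8.23 and 7.88 on the null arrays and 8.84, 8.12 and 8.21 on the wild-type arrays, so wild type 1 alone stood above the null range. The difference was -0.46 (SE 0.22, interval -0.98 to 0.060, adjusted p = 0.524), and it was -0.24 without wild type 1. Gstt1 had 7.01, 7.87 and 7.40 against 8.53, 7.26 and 7.22, again set by wild type 1, with a difference of -0.24 (SE 0.37) that became 0.19 without that array. Mgst1, a membrane-bound transferase, was likewise highest on wild type 1 (8.93, with the other 5 arrays between 8.23 and 8.58). Gsto1, the omega-class enzyme, went the other way, with 10.88, 10.80 and 10.90 against 10.66, 11.51 and 11.26, and a difference of -0.28 (SE 0.21). Mgst3 had -0.28 (SE 0.27), Gstm1 -0.088 (SE 0.18), Gstm2 -0.094 (SE 0.16) and Mgst1 -0.046 (SE 0.20). Mgst2 had 0.081 (SE 0.13) at signals of 5.06 to 5.44, near the array median.

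In the thioredoxin system, which reduces protein disulfides through Txn1 and its reductases, the inhibitor gene Txnip had the largest difference. Txnip binds reduced thioredoxin, limits glucose uptake and is known to be induced by glucose. It had signals of 12.29, 11.78 and 12.31 on the null arrays and 11.29, 11.20 and 11.05 on the wild-type arrays. Every null array was brighter than every wild-type array, null 2 by the smallest margin. The difference was 0.95 (SE 0.17, interval 0.56 to 1.33), and it did not pass over all genes (adjusted p = 0.213), the smallest value of the members. Without null 2 it was 1.12 and passed with limma (adjusted p = 0.0465). Over the alternatives the adjusted p ran from 0.0256 to 0.853. All 8 listed glycolysis and hypoxia genes had a higher mean in the null group, whereas 44.9% of all genes had a lower one. Their mean deviations were 0.93, 0.018 and 0.82 on the null arrays and -0.38, -0.76 and -0.63 on the wild-type arrays. Null 2 was the lowest null array, as for Txnip. The list was chosen with earlier results of these data known, so these values are a description only. The part of these genes in the Txnip difference was not tested.

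Thioredoxin itself, Txn1, had 9.85, 9.73 and 9.70 on the null arrays and 9.79, 10.02 and 10.13 on the wild-type arrays. Wild type 1 lay within the null range, and the difference was -0.22 (SE 0.12, adjusted p = 0.581). Txnrd1, the cytosolic reductase, had 10.39, 10.42 and 10.47 against 9.83, 10.75 and 10.65, so the null arrays were tightly grouped (SD 0.040) inside a wide wild-type range (SD 0.50). Its difference was 0.013 (SE 0.23), and -0.28 without wild type 1. Txnrd2, the mitochondrial reductase, had -0.051 (SE 0.12) at signals of 5.90 to 6.13. Srxn1, which repairs overoxidised peroxiredoxins, had 8.81, 8.67 and 8.58 against 8.03, 8.62 and 8.52. The difference was 0.30 (SE 0.17, adjusted p = 0.584), and without wild type 1 it fell to 0.11.

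Among the enzymes that remove superoxide and peroxide, catalase had the largest difference. Catalase breaks hydrogen peroxide into water and oxygen, mostly in peroxisomes. Cat had signals of 11.71, 12.17 and 11.96 on the null arrays and 12.58, 12.91 and 12.60 on the wild-type arrays. The highest null array was below the lowest wild-type array, and the difference was -0.75 (SE 0.16, interval -1.11 to -0.38, adjusted p = 0.271). Leaving out any single array kept it between -0.86 and -0.63. The macrophage mean was also lower in the null group on average, at 8.83, 9.62 and 7.31 on the null arrays and 9.55, 10.07 and 10.25 on the wild-type arrays. Its array order differed, since Cat was lowest on null 1 and highest on wild type 2. With that mean as a covariate the Cat difference was -0.66 (adjusted p = 0.853), and the part of macrophage markers in it was not tested.

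Superoxide dismutases turn superoxide into hydrogen peroxide. Sod2, the mitochondrial enzyme, was among the steadiest genes (within-group SD 0.064, at the 4.14th percentile of all genes), with 10.37, 10.54 and 10.47 against 10.71, 10.65 and 10.63. The groups did not overlap, and the difference was small at -0.20 (SE 0.10, interval -0.44 to 0.038, adjusted p = 0.543). Sod1, the cytosolic enzyme, had -0.051 (SE 0.14). Sod3, the secreted enzyme bound to matrix, varied most, with 9.43, 11.11 and 9.89 on the null arrays and 10.55, 10.49 and 9.62 on the wild-type arrays. Null 2 was highest and null 1 lowest, and the difference was -0.072 (SE 0.43, interval -1.08 to 0.94).

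Glutathione peroxidases and peroxiredoxins had small differences, none beyond that of Gpx7. Gpx1, the main cytosolic glutathione peroxidase, had 11.28, 11.44 and 11.40 against 11.20, 11.37 and 11.48, with overlapping groups and a difference of 0.023 (SE 0.12, interval -0.25 to 0.30). Gpx4, which reduces lipid peroxides in membranes and guards against ferroptosis, had 8.98, 8.85 and 8.74 against 8.75, 9.04 and 8.77, with 0.0038 (SE 0.13, interval -0.29 to 0.30). Gpx3, the secreted form, had 0.011 (SE 0.26), with wild type 3 alone low at 8.38 and the other 5 arrays between 9.02 and 9.43. Of the endoplasmic reticulum members, Gpx7 had 0.25 (SE 0.14, adjusted p = 0.577) and Gpx8 -0.044 (SE 0.11). The peroxiredoxins, thiol enzymes that consume most cellular peroxide, had positive differences for all 3 measured: 0.16 for Prdx2 (SE 0.13), 0.090 for the mitochondrial Prdx3 (SE 0.12) and 0.15 for Prdx4 of the secretory pathway (SE 0.12). Their 95% intervals reached from -0.19 to 0.46.

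Metallothionein signals were bright on every array and did not separate the groups. Mt1 had 11.75, 11.61 and 11.58 on the null arrays and 11.86, 11.76 and 11.72 on the wild-type arrays. The groups overlapped at null 1, and the difference was -0.14 (SE 0.11, interval -0.39 to 0.11). Mt2 had 12.62, 12.22 and 12.24 against 12.84, 11.75 and 12.01. Wild type 1 was highest and wild type 2 lowest, the reverse of Nqo1, and the difference was 0.16 (SE 0.27, interval -0.48 to 0.79). The spread also separated the neighbours, since the within-group SD was 0.083 for Mt1 (9.29th percentile of all genes) and 0.43 for Mt2 (93.7th percentile).

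**Figure D3:**
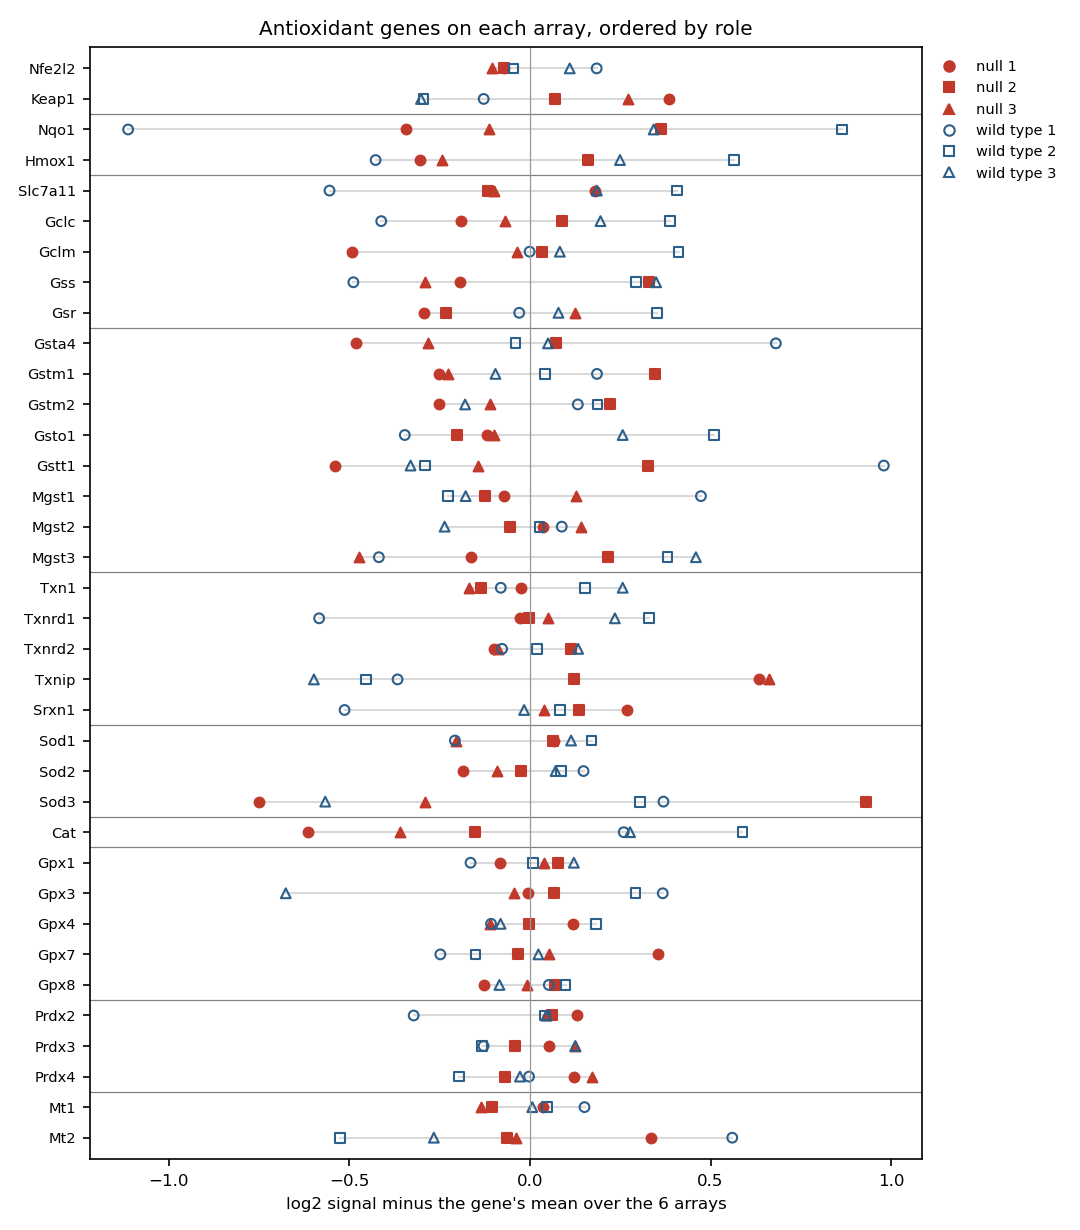
Log2 signal of each of the 36 antioxidant genes minus its mean over the 6 arrays (horizontal axis), in rows grouped by role (grey lines: Nrf2 switch, effectors, glutathione synthesis and recycling, transferases, thioredoxin, superoxide dismutases, catalase, glutathione peroxidases, peroxiredoxins, metallothioneins); filled red symbols are null arrays and open blue symbols wild-type arrays. Wild type 1 (open circle) is lowest for 12 genes and highest for 8, and Cat and Txnip separate the groups most widely.

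Side by side, the arms had median differences of -0.11 for glutathione (13 genes), 0.013 for thioredoxin (5 genes), 0.0074 for superoxide and peroxide removal (12 genes) and 0.0092 for metallothioneins (2 genes). At an unadjusted p under 0.05 the glutathione and metallothionein arms had 0 genes each, the thioredoxin arm 1 (Txnip) and the peroxide arm 1 (Cat). The median of all genes was 0.022, and differences between arms were not tested.

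**Figure D4:**
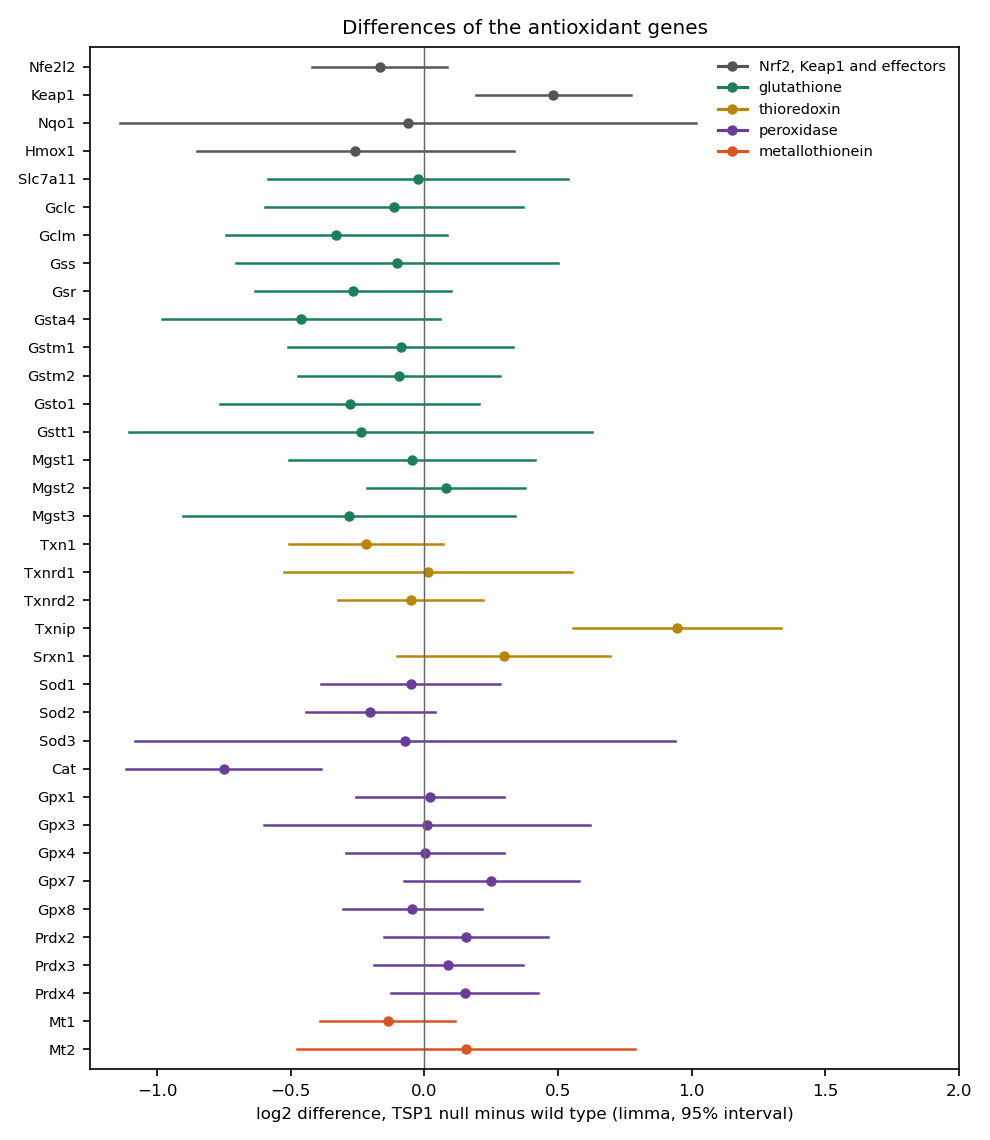
Differences of the 36 antioxidant genes, TSP1 null minus wild type, on the log2 scale (points) with limma's 95% intervals (lines), coloured by arm; the peroxidase colour covers superoxide dismutases, catalase, glutathione peroxidases and peroxiredoxins. The unadjusted intervals of Keap1, Txnip and Cat lie clear of 0, and all others cross it.

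Leaving out wild type 1 moved the effectors and the glutathione arm to lower values in the null group. Without it the median of the glutathione genes was -0.31, that of the thioredoxin genes -0.10, that of the peroxide genes 0.0027 and that of the metallothioneins 0.19. At an unadjusted p under 0.05 there were then 11 members (30.6%, against 12.3% of all genes), 8 lower (5.6% of all genes were) and 3 higher (6.73% of all genes were) in the null group. The 8 were Nqo1 (-0.63), Hmox1 (-0.54), Gclc (-0.35), Gsto1 (-0.52), Mgst3 (-0.56), Txn1 (-0.31), Txnrd1 (-0.28) and Cat (-0.81), and the 3 were Keap1 (0.54), Txnip (1.00) and Mt2 (0.47). With limma none of the 36 passed over all genes in that fit either, the smallest adjusted p being 0.137. Nothing in the labels sets wild type 1 apart, and it was singled out from the 6 arrays left out in turn after the values were seen.

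**Figure D5:**
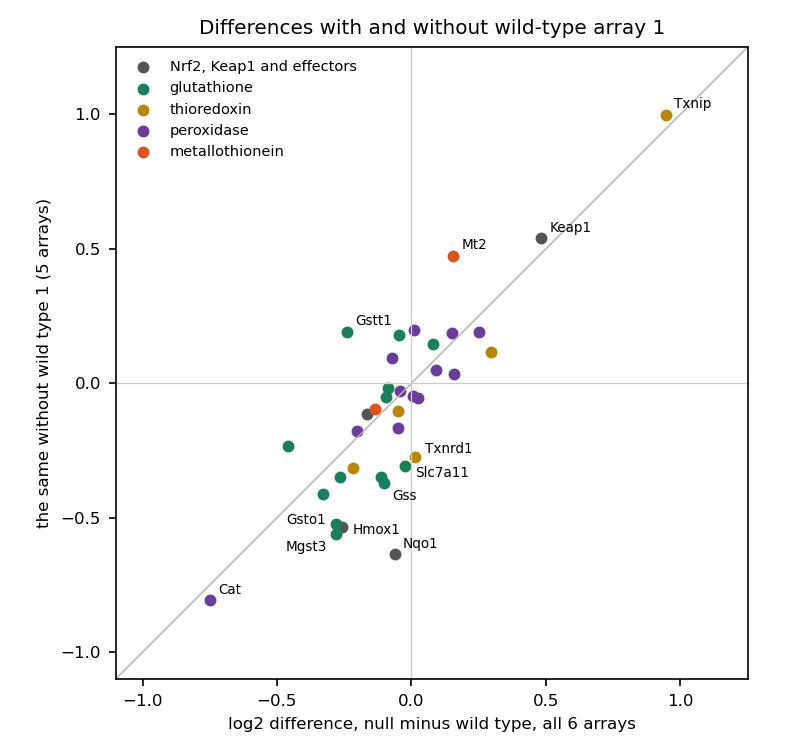
Each antioxidant gene's log2 difference, TSP1 null minus wild type, with all 6 arrays (horizontal axis) and without wild type 1 (vertical axis); the diagonal marks equal values. Txnip, Keap1 and Cat stay near the diagonal, whereas Nqo1 moves from -0.062 to -0.63 and Mt2 from 0.16 to 0.47.

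Several of these differences changed when the macrophage mean entered the fit. With it as a covariate 13 of the 36 members changed sign, among them Nqo1 (0.43), Hmox1 (0.066), Gss (0.35) and Mgst3 (0.23), and the members' median was 0.052. Txnip and Cat were then the members with an unadjusted p under 0.05 (2 of 36, 5.56%, against 5.58% of all genes). Keap1 was 0.37 in that fit. How far cells other than myoepithelial cells carry these signals was not tested.

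Further genes of the pathway came from a companion list of 79, of which 70 were measured. With limma 0 of them passed over all genes, 37 had a higher and 33 a lower mean in the null group, and 13 had an unadjusted p under 0.05 (18.6%, against 10.6% of all genes). Of these 8 were higher in the null group (6.28% of all genes were) and 5 were lower (4.27% of all genes were). The list was chosen after its values were seen, so these shares are a description only. Sesn2, a stress-induced sestrin that restrains mTORC1, had the smallest p. It had 9.39, 9.01 and 9.14 on the null arrays and 8.30, 8.38 and 8.42 on the wild-type arrays, with no overlap and a difference of 0.81 (SE 0.13, adjusted p = 0.194). Bach1, the heme-sensing repressor that competes with Nrf2 for its sites, had 8.98, 8.56 and 8.65 against 8.26, 7.75 and 8.30. Its groups did not overlap either, with a difference of 0.63 (SE 0.18, adjusted p = 0.347). Txndc5, a disulfide isomerase of the endoplasmic reticulum, had 0.36 (SE 0.12).

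Of the companion genes with lower signals, Glrx, the cytosolic glutaredoxin, had 9.63, 9.77 and 9.34 on the null arrays and 9.94, 10.65 and 10.53 on the wild-type arrays, without overlap. The difference was -0.79 (SE 0.21, adjusted p = 0.321), or -0.45 with the macrophage mean as a covariate. Sesn1, a sestrin induced by p53, had -0.70 (SE 0.21), or -0.21 with that covariate. Hpgds, the glutathione-dependent prostaglandin D synthase, had 7.69, 9.03 and 6.07 against 9.33, 9.80 and 9.85, lowest on null 3 as the macrophage mean was. Its difference was -2.06 (SE 0.64, adjusted p = 0.365), and -0.40 with the covariate.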

How the data were processed

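The deposited file holds log2 signals of 41345 probe sets per array, normalized across arrays by the authors; per the submitters' processing notes the tools were Partek and RMA, which corrects background, normalizes quantiles and summarizes probes. The sources used here give no version or genome build. RMA compresses differences of dim probe sets. Signals ran from 1.83 to 14.2, and arrays correlated at 0.978 to 0.992, so none repeated another. Arrays have no sequencing depth; their number limits the precision.

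In the platform annotation 23521 probe sets had 1 symbol, 1814 had several and 16010 had none. The brightest single-symbol probe set per gene left 22180 genes, with no intensity filter. Groups and replicate numbers come from the titles; the null titles read TSP1-1 where the source names say TSP1 null.

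Groups were compared with limma 3.58.1 (R 4.3.3; lmFit, eBayes, two-sided) on all 6 arrays, adjusting p by Benjamini-Hochberg over all genes tested, at 0.05. The code was tested on simulated data. Figures used Python 3.11.15 and matplotlib 3.10.9. All 40 members are named; of the companion list, the 3 of smallest p per direction. Members, lists and the alternatives were chosen with earlier results of these data known. Promoter windows come from RefSeq. Alternatives were other normalizations, a filter on dim genes, averaged probe sets, other variance models, array weights, a replicate block, a macrophage covariate and leaving out arrays.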

Additional observations from a re-analysis of the deposited data

How the results depend on the processing

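Over 16 alternatives each, the differences of the 36 members, Thbs1 and the 6 named companion genes kept direction and call in 623 of 688 values, changed sign in 60 and newly passed in 5. The members that changed sign in 0 alternatives were Nfe2l2, Keap1, Gclm, Gsr, Gsta4, Gsto1, Txn1, Txnip, Srxn1, Sod2, Cat, Gpx7, Prdx2, Prdx3, Prdx4 and Mt1. Txnip ran from 0.65 to 1.17, Cat from -0.92 to -0.63 and Keap1 from 0.37 to 0.63. With limma 0 genes passed; 2341 had an unadjusted p under 0.05, and an ordinary linear model also called 0 and gave 1904.

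With single arrays left out, genes called ran from 0 to 34 (34 without null 2, 1 without wild type 1), members called from 0 to 1 (Txnip without null 2) and the glutathione median from -0.31 (without wild type 1) to -0.047 (without null 1). Signs changed for Nqo1 (-0.63 to 0.35), Slc7a11 (-0.31 to 0.17), Gclc (-0.35 to 0.051), Gss (-0.37 to 0.046), Gstm1 (-0.28 to 0.017), Gstm2 (-0.23 to 0.0086), Gstt1 (-0.46 to 0.19), Mgst1 (-0.17 to 0.18), Mgst2 (-0.017 to 0.15), Txnrd1 (-0.28 to 0.18), Txnrd2 (-0.12 to 0.0028), Sod1 (-0.17 to 0.039), Sod3 (-0.56 to 0.28), Gpx1 (-0.054 to 0.089), Gpx3 (-0.32 to 0.20), Gpx4 (-0.055 to 0.096), Gpx8 (-0.098 to 0.0082) and Mt2 (-0.069 to 0.47).

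Without null 2 and wild type 1 together, 365 genes, 1 member (Txnip) and 5 companion genes passed, with medians of -0.18 for the members, -0.30 for the glutathione and -0.061 for the peroxide arm; Gpx1 was -0.087, Gpx4 -0.047, Mgst1 0.23 and Txnrd1 -0.27. With the macrophage mean as a covariate the members' median was 0.052, and Nqo1 was 0.43, Hmox1 0.066, Slc7a11 0.15, Gclc 0.067, Gss 0.35, Gstm1 0.13, Gstm2 0.0089, Mgst2 -0.069, Mgst3 0.23, Txnrd2 0.075, Sod1 0.17, Sod3 0.32 and Gpx3 -0.076. Array weights gave Gpx1 -0.041, Mgst1 0.076 and Txnrd1 -0.12. Quantile normalization gave Gpx3 -0.0012 and Gpx4 -0.0051, median centring Slc7a11 0.013, and averaged probe sets Slc7a11 0.074. The cause of these changes was not tested. Scaling moved the median of all genes by at most 0.038.

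Deviations of samples with the same replicate number correlated at -0.14, 0.18 and -0.16, and those with unlike numbers at -0.18 to 0.26. With 3 arrays per group such values cannot show whether the numbers mark a shared preparation. With the replicate block 0 genes and 0 members passed, 2215 genes had an unadjusted p under 0.05 and the members' median stayed at -0.057.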

Other observations

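Among the companion genes, chosen here after their values were seen, wild type 1 was the lowest array for 33 of 70 (47.1%, against 24.2% of all genes). The small Maf partners of Nrf2 were among them: on wild type 1 Maff was at 6.27 with the other 5 arrays at 7.04 to 7.65, Mafk at 7.14 against 7.78 to 8.48, and Mafg at 6.02 with the highest at 6.72. Sqstm1, the autophagy adaptor that also binds Keap1, was at 10.62 there and at 11.20 to 11.57 elsewhere. Abcc4, a membrane exporter, was at 6.99 and at 7.72 to 7.85 elsewhere. Cp, the copper ferroxidase ceruloplasmin, went the other way, at 9.48 on wild type 1 and 7.45 and 7.85 on the other wild-type arrays, with null arrays at 8.70 to 9.19.

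Slc40a1, the iron exporter ferroportin, had 8.23, 9.01 and 6.56 on the null arrays and 8.81, 10.06 and 9.87 on the wild-type arrays, a difference of -1.65 (SE 0.60), lowest on null 3 as the macrophage markers were.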
